A study of Mus musculus with 6 samples.

Results

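The ABC transporter family was described in brain endothelial cells of mouse embryos at E14.5 (embryonic day), in wild-type embryos and in embryos overexpressing Axin1. Its members were taken as every gene of the deposited table whose symbol begins with Abc, a subfamily letter from a to g and a digit. This gave 50 of 23827 genes, of which 29 reached a mean of 1 RPKM (reads scaled to transcript length and to library size) over the 6 libraries. Among the 29, which were tested, Abca1, which exports cholesterol from cells, had the largest fall, to 53.3% of its wild-type level. The drug pump gene Abcb1a fell to 69.8%, whereas Abcg2, the most abundant member, did not pass the test and had a log2 fold change of 0.05.

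ABC proteins share an ATP-binding cassette, and most of them use ATP to move lipids, drugs, conjugates, peptides or metals across membranes. Subfamily A carries mainly lipids, B and C hold drug and organelle transporters, D serves peroxisomes and lysosomes, and G holds sterol and drug transporters. Subfamilies E and F have the cassettes without a membrane part and act in translation. At the blood-brain barrier, P-glycoprotein (Abcb1a in mouse brain vessels), Abcg2 and Abcc4 lie in the luminal membrane of endothelial cells and return drugs to the blood.

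The 2 groups had 3 biological replicates each, of strain C57BL/6 x 129/Sv. Wild-type embryos were set against embryos carrying the R26 Axin1 IresLacZ overexpression allele. Axin1 is a scaffold of the complex that destroys beta-catenin. The mothers in both groups received tamoxifen at E12.5. Polyadenylated RNA bound to tagged ribosomes was isolated by translating ribosome affinity purification. The sources used here do not give the Cre driver, the promoter of the ribosome tag or any pooling of embryos.

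Reads recovered from the RPKM came to 53.5 to 62.5 M in wild-type libraries and 21.1 to 37.0 M in Axin1 libraries. Axin1 itself read 13.6, 14.4 and 15.1 RPKM in wild type and 37.8, 38.1 and 37.4 RPKM with the allele, a log2 fold change of 1.34 (limma adjusted p = 2.25e-05). The column names carry another tag for each group (RS148 and RS216). No source used here says what it means, and genotype and tag cannot be told apart. All 8 endothelial markers were present, their summed level being 2735 to 2867 RPKM in wild type and 2289 to 2466 RPKM with Axin1. Of these 1 was higher, Emcn (136 to 284 RPKM in group means, log2 fold change 1.05). Another 2 were lower (1 without Axin1 replicate 2), the tight junction gene Cldn5 (1263 to 748 RPKM) and Tie1 (325 to 262 RPKM). Cldn5 was the largest single part of the summed level in both groups and had the largest fall. Of those not called, Pecam1 and Cdh5 had higher means with Axin1, and Tek, Kdr and Erg lower ones. RNA of other cells was present too. In bulk samples fewer cells of a type, less RNA per cell and less RNA carried over in the purification cannot be told apart. The summed level of 10 neural progenitor markers, none of them at 0, was 1708 to 1878 RPKM in wild type and 2217 to 2315 RPKM with Axin1. Most of it came from Vim (1167 and 1469 RPKM in group means) and Nes (373 and 431 RPKM, not called), so that the sum mainly follows these genes. Of the 10 markers 7 were higher (4 without Axin1 replicate 2). Of 8 neuron markers tested, 3 were higher (Stmn2, Map2 and Neurod1) and 0 lower, with a median log2 fold change of 0.26. The higher ones numbered 0 without Axin1 replicate 2 or 3. The part of neural cells in the results was not tested.

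Start-site sequences were found in RefSeq (GRCm38.p6) for 38 of the 50 members, as windows of 250 bases before to 50 bases after the transcription start. Those of 3 members are shown here, since Abca1 and Abcb1a are the 2 members above 10 RPKM that were called lower with the largest change, and Abcb1b is the close paralog of Abcb1a that was barely detected. Capitals mark matches on either strand to a liver X receptor repeat or to the TCF/LEF site. The repeat was searched as the letters GGTTA, any 5 bases in the middle, and the letters GGTCA at the end. The TCF/LEF site was searched as CTTTG with AA, AT, TA or TT after it. Liver X receptors are the sterol sensors known to induce Abca1, and TCF/LEF factors are the DNA-binding partners of beta-catenin.
Abca1, chr4:53159846-53160145, minus strand: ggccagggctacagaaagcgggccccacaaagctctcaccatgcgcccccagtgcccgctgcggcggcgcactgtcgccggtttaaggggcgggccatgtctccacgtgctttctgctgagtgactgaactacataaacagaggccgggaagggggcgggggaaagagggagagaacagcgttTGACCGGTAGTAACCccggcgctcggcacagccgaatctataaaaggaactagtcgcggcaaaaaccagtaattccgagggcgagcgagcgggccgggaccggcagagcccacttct
Abcb1a, chr5:8566841-8567140, plus strand: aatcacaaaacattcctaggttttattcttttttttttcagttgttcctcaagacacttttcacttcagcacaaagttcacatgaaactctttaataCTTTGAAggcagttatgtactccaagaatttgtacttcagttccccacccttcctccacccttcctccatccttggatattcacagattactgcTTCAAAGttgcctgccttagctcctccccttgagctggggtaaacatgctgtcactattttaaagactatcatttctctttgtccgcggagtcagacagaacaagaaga
Abcb1b, chr5:8797897-8798196, plus strand: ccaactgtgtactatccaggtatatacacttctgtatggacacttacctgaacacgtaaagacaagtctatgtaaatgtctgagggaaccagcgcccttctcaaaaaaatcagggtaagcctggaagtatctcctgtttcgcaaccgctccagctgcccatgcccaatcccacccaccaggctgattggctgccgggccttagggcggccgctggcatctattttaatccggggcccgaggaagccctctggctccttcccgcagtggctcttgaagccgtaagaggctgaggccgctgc
The Abca1 window held 1 match to the liver X receptor repeat, beginning 67 bases before the start. The letters searched are those of the element known from Abca1 itself, so that the match was fixed by their choice. They were in 16 of 32851 windows of all genes (0.0487%). The Abcb1a window held 2 TCF/LEF matches, beginning 153 and 59 bases before the start, and the marked matches did not overlap. TCF/LEF letters were in 16.9% of all windows. Of the 38 members, which have 45 windows, 5 held them: Abca13, Abcb1a, Abcb5, Abcc4 and Abcc5. The E-box CACGTG, left in lower case, was in 7.15% of all windows and in those of 6 of the 38 members, Abca1 among them. A match describes the letters only, and binding was not measured. No match in the Abcb1b window says only that these letters are not in it.

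Levels within the family spanned from no read to over 100 RPKM. Abcg2 read 115, 116 and 126 RPKM in wild-type replicates 1 to 3, and ranked 463rd of 12493 genes by wild-type level. By itself it made up 27.7% of the RPKM of all members. Abcf1, Abcf2 and Abce1, the members that act in translation, came next with means over the 6 libraries of 45.8, 38.1 and 37.1 RPKM. They were followed by the lipid exporters Abca1 (33.4 RPKM) and Abcg1 (24.0 RPKM). These means pool both groups, and in wild type alone Abca1 (43.6 RPKM) stood above Abcf2 (35.5 RPKM) and Abce1 (33.8 RPKM). In all, 12 members had a mean of at least 10 RPKM, 17 lay between 1 and 10 RPKM, and 21 lay below 1 RPKM. The members nearest the limit of 1 RPKM were Abca4 (1.02 RPKM) inside it and Abcc8 (0.616 RPKM) outside it, and 27 members reached 1 RPKM in every library.

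**Figure D1:**
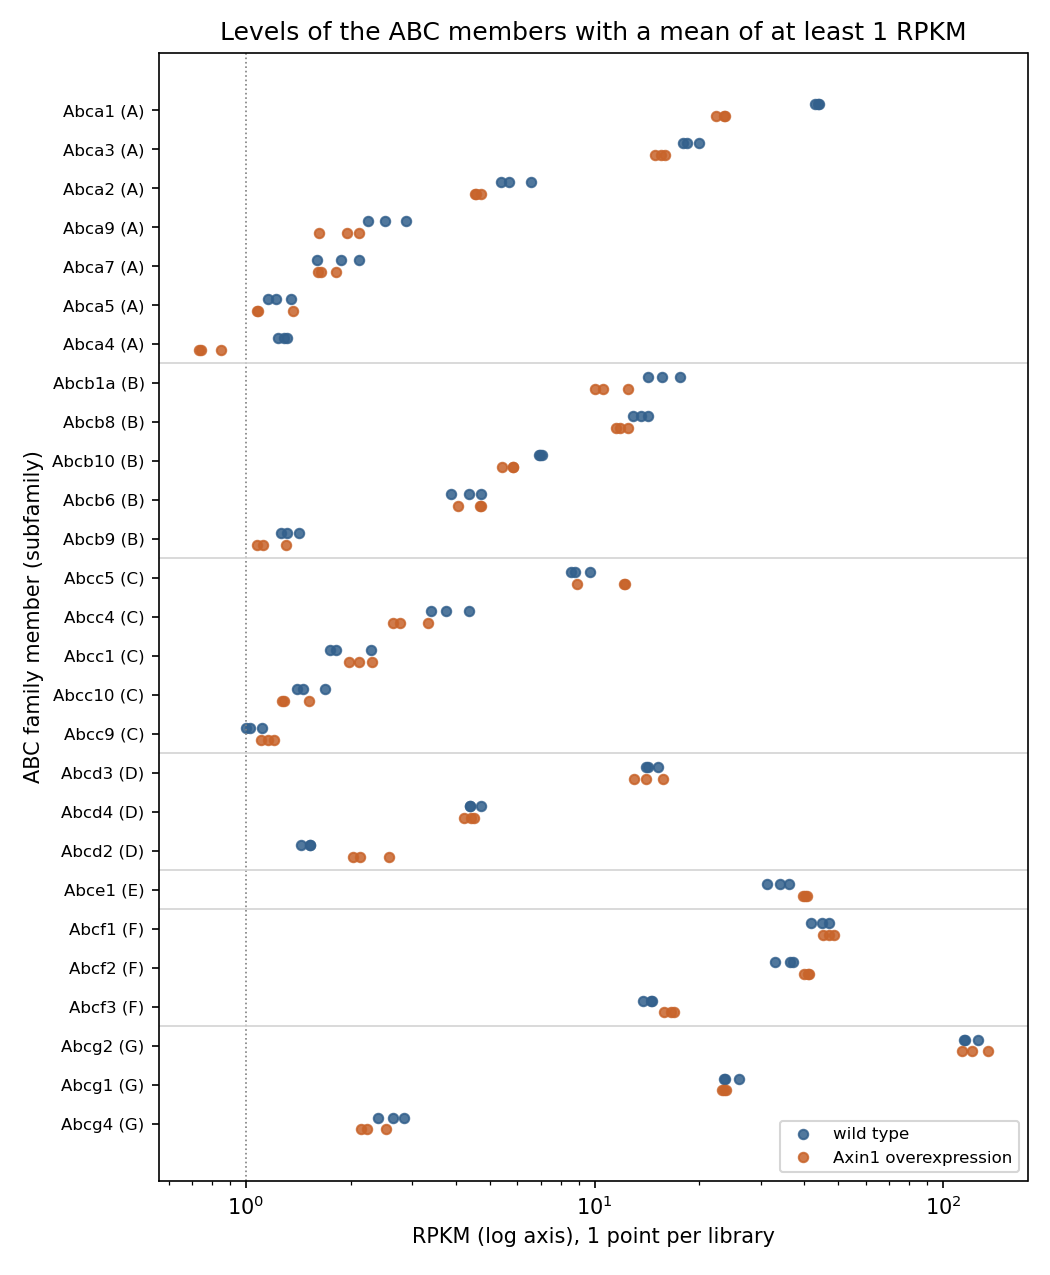
RPKM of 27 members with a mean of at least 1 RPKM, on a log axis, with 1 point for each library (3 wild type, 3 Axin1 overexpression), grouped by subfamily. Abcg2 lies highest with its groups overlapping, and the Abca1 groups are the farthest apart, at 42.8 to 44.1 RPKM in wild type and 22.3 to 23.7 RPKM with Axin1.

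The 2 groups were compared with limma on log2(RPKM + 1), fitted across 12493 genes, with Benjamini-Hochberg adjustment over all of them and a threshold of 0.05. On this scale the fold changes of low genes come out too small. Over both directions 22.8% of the genes tested were called. Of the 29 members tested, 8 were lower with Axin1 (27.6%), where 8.37% of all genes tested were lower. Of the 8, Abca4 reached the filter only through its wild-type level, and without it 7 of 28 were lower (25%). Another 2 were higher (6.90%), where 14.4% of all genes were. These shares of all genes, 8.37% lower and 14.4% higher, also stand beside the counts of every other list and marker set in this same fit. The median log2 fold change was -0.05 over the members and 0.04 over all genes tested. The groups did not overlap for 14 of 29 members (48.3%), close to the 43.9% of all genes, with 9 members lower (15.9% of all genes) and 5 higher (28% of all genes). The lower members numbered 2 without Axin1 replicate 2, 4 without Axin1 replicate 3 or wild-type replicate 3, and 5 without wild-type replicate 1 or Axin1 replicate 1. The higher members numbered 1 without wild-type replicate 1 or 2 or without Axin1 replicate 2 or 3. Over all genes, too, fewer were called in either direction when a library was left out. The shares above are therefore not those of the counts without a library, here or for the lists. With every library adjusted for GC and length, 4 members were lower and 2 higher, beside 7.22% and 7.14% of all genes, and after rescaling by the median of ratios 9 were lower and 1 higher, beside 10.7% and 10.4%.

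**Figure D2:**
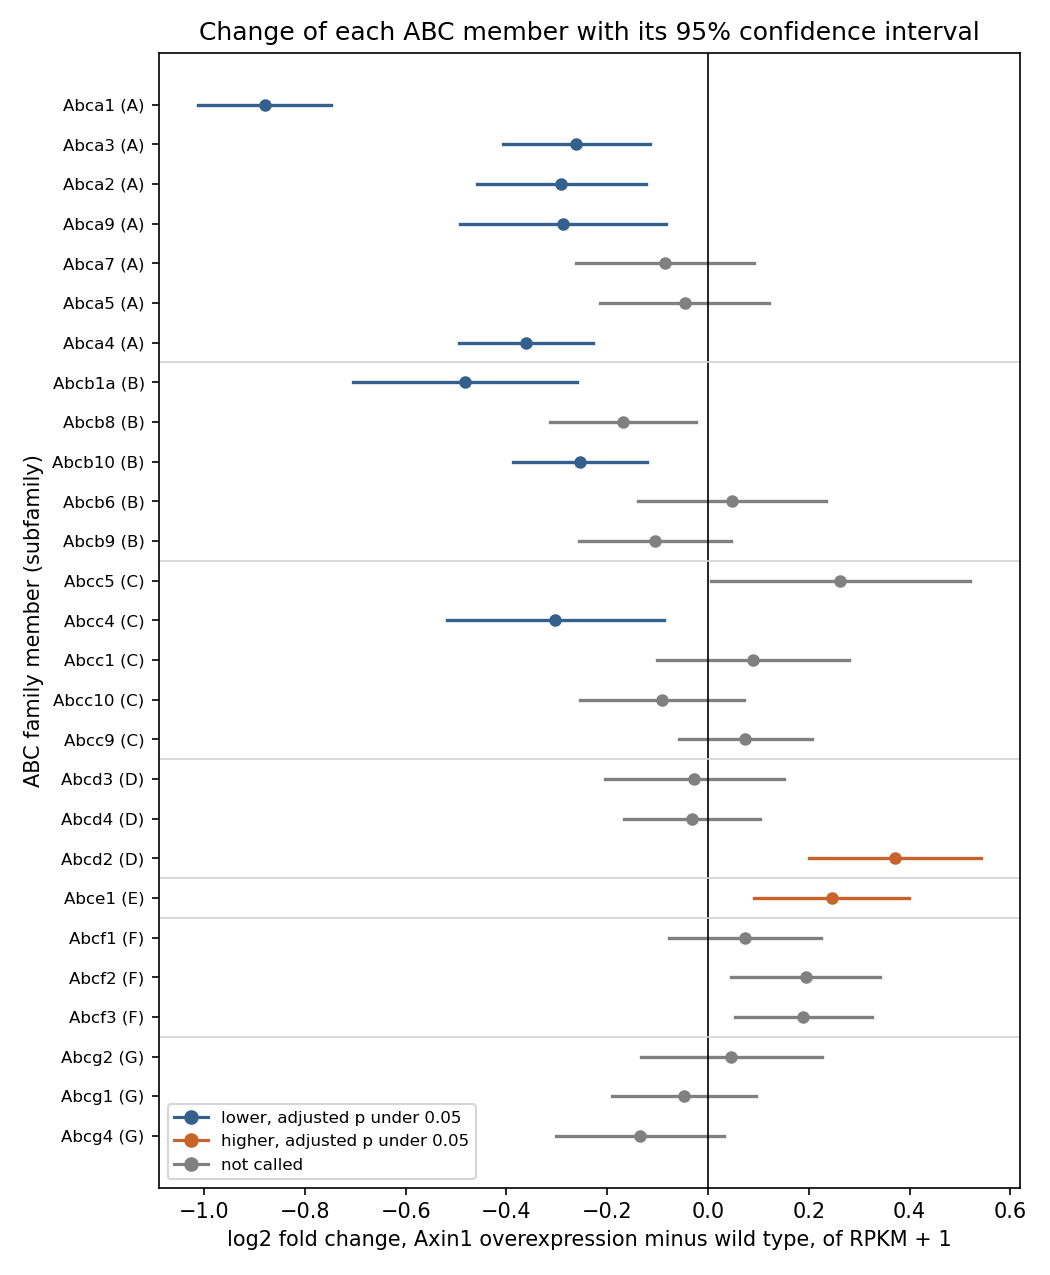
log2 fold change (Axin1 overexpression minus wild type, on RPKM + 1) of 27 tested members, with 95% confidence intervals from limma, grouped by subfamily. Abca1 stands farthest below 0 at -0.88, all 7 members of subfamily A lie below 0, and the 4 members of subfamilies E and F lie above 0.

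Of 16 members of subfamily A, the lipid transporters, 7 were tested. Of these 5 were lower (8.37% of all genes tested) and 0 higher, and the median log2 fold change was -0.29. Without Abca4, whose fall bears on its passing the filter, 4 of 6 were lower, with a median of -0.28. The GC and length adjustment ended the calls of Abca2, Abca3 and Abca9. Abca1, which loads cholesterol and phospholipid onto apolipoproteins, read 42.8, 44.1 and 43.7 RPKM in wild type and 23.7, 22.3 and 23.6 RPKM with Axin1. The groups were far apart and each was tight, at -0.88 in log2 (SE 0.06; limma adjusted p = 9.16e-05). The value rests on 24128 to 27253 reads in wild-type libraries and 5109 to 8873 reads in Axin1 libraries. No alternative ended this call, and the change lay between -0.92 and -0.69 across 17 of them. Abca1 is also active in macrophages. In the same libraries the summed level of 10 microglia and macrophage markers was 37.2 to 39.1 RPKM in wild type and 36.6 to 64.4 RPKM with Axin1, with 1 of the 9 tested higher and 0 lower. None was higher without wild-type replicate 1 or 3 or Axin1 replicate 3, and 3 were without Axin1 replicate 2. The part of these cells in the Abca1 result was not tested.

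Abca4, known as the retinoid flippase of photoreceptors, read 1.31, 1.24 and 1.29 RPKM in wild type and 0.743, 0.846 and 0.732 RPKM with Axin1. Its log2 fold change was -0.36 (limma adjusted p = 0.00522), and -0.70 with voom on recovered reads. Its mean reached 1 RPKM through wild type alone, so that its passing the filter is tied to its difference. The call ended with a pseudocount of 10, among 13 alternatives in which it could be tested. It fell under the filter without any of the wild-type libraries and with a filter of 5 RPKM. The summed level of 7 choroid plexus markers, a brain epithelium, was 140 to 190 RPKM in wild type and 91.5 to 150 RPKM with Axin1, most of it from Ttr (143 and 96.9 RPKM, not called). Of the 6 tested 1 was higher (Aqp1, log2 fold change 0.83) and 0 lower, with a median of 0.10, and their part in this result was not tested.

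Abca3, a lamellar body lipid transporter known from lung, read 17.9, 18.4 and 19.9 RPKM in wild type and 15.9, 15.5 and 14.9 RPKM with Axin1. Abca2, its relative in the lysosomes of neural cells, read 5.70, 6.57 and 5.40 RPKM in wild type and 4.55, 4.74 and 4.56 RPKM with Axin1. In both genes every wild-type library lay above every Axin1 library, with log2 fold changes of -0.26 and -0.29 (limma adjusted p = 0.0225 and 0.0256). Both calls ended with the GC and length adjustment, where the changes were -0.14 and -0.10. They also ended without Axin1 replicate 2 or 3, that of Abca2 without Axin1 replicate 1 too and that of Abca3 without wild-type replicate 3 too.

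Abca9 belongs to the Abca6-like cluster of closely related genes. It read 2.88, 2.24 and 2.50 RPKM in wild type and 2.11, 1.95 and 1.62 RPKM with Axin1, without overlap. Its log2 fold change of -0.29 passed narrowly (limma adjusted p = 0.0496), and 11 of 16 alternatives ended the call, among them leaving out any library but wild-type replicate 2. The meningeal fibroblast markers, 9 genes with none at 0, summed to 172 to 246 RPKM in wild type and 144.9 to 175 RPKM with Axin1. Of these 3 were lower (5 without wild-type replicate 2, 1 without Axin1 replicate 2 or 3), and their part in the Abca9 result was not tested. Abca7, a phospholipid transporter related to Abca1, and Abca5 did not pass (log2 fold changes -0.09 and -0.05), and the sign of Abca7 turned with the GC and length adjustment (0.10).

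Of 10 drug and conjugate efflux pumps 6 were tested. Of these 2 were lower (8.37% of all genes tested) and 0 higher, and the median log2 fold change was -0.02. The lower pumps numbered 0 without Axin1 replicate 2 and 1 without any other library but wild-type replicate 2. Abcb1a, the P-glycoprotein gene, read 15.6, 14.3 and 17.6 RPKM in wild type and 10.1, 10.6 and 12.49 RPKM with Axin1. Every Axin1 library lay below every wild-type library, a change of -0.48 in log2 (SE 0.10; limma adjusted p = 0.0119). The call was lost in 1 of 17 alternatives, without Axin1 replicate 2 (adjusted p = 0.0518). Its paralog Abcb1b stayed low throughout, at 0.208, 0.285 and 0.269 RPKM in wild type and 0.265, 0.186 and 0.251 RPKM with Axin1, so that Abcb1a was 37.9 to 75.2 times as high in the 6 libraries. How reads shared by the paralogs were counted is unknown, so both values are uncertain, and so are those of Abca9, Abca8a and Abca8b.

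Abcg2, the breast cancer resistance protein gene, read 115, 116 and 126 RPKM in wild type and 113, 121 and 135 RPKM with Axin1. The groups overlapped, at 119 ± 6.38 and 123 ± 10.8 RPKM (SD, n = 3). The log2 fold change was 0.05 with a 95% interval from -0.13 to 0.23 (limma adjusted p = 0.699). The sign turned with the GC and length adjustment (-0.06).

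Abcc4, which exports conjugated and nucleotide-like compounds, read 4.36, 3.39 and 3.74 RPKM in wild type and 2.77, 3.33 and 2.64 RPKM with Axin1. Its highest Axin1 library came just below its lowest wild-type library. The log2 fold change of -0.30 passed narrowly (limma adjusted p = 0.0498), and 12 of 16 alternatives ended the call, among them the replicate number as a block (adjusted p = 0.0671), voom, and leaving out any library but wild-type replicate 2. Abcc5, an exporter of cyclic nucleotides and heme, read 8.58, 9.70 and 8.77 RPKM in wild type and 8.93, 12.1 and 12.3 RPKM with Axin1. It missed the threshold (0.26 in log2, adjusted p = 0.123), Axin1 replicate 1 being within the wild-type range, and it was called without that library. The glutathione-conjugate pump Abcc1 and its relative Abcc10 missed it too (log2 fold changes 0.09 and -0.09), the latter turning to 0.04 with the GC and length adjustment.

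**Figure D3:**
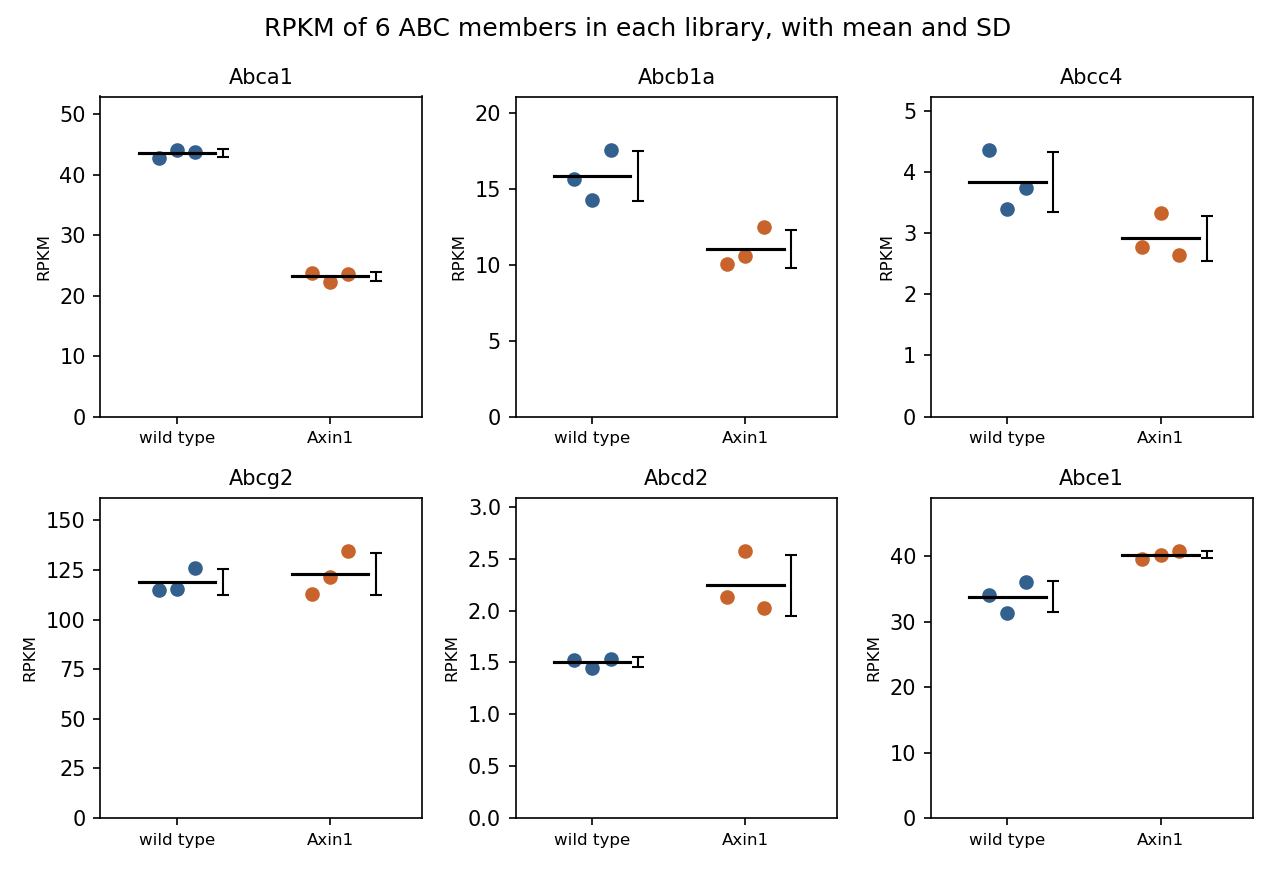
RPKM of 6 members in each library (points), with the group mean (line) and SD (bar beside it), for wild type and Axin1 overexpression, each axis starting at 0. Abca1, Abcb1a and Abcc4 lie lower with Axin1 without overlap, Abcd2 and Abce1 higher without overlap, and Abcg2 overlaps.

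Ratios of 2 members within a library do not depend on how libraries are scaled. They were taken for 4 pairs, chosen after the values were seen, each a called member over one not called. Groups apart were thus favoured by the choice, and the p-values of the ratios add no independent support. The Abcb1a to Abcg2 ratio was 0.136, 0.124 and 0.139 in wild type and 0.089, 0.0872 and 0.0928 with Axin1. Relative to Abcg2, Abcb1a was thus lower in 3 of 3 Axin1 libraries, by 0.57 in log2. The Abca1 to Abcg1 ratio went from 1.79 ± 0.0851 to 0.986 ± 0.0452 (SD, n = 3), so that the 2 cholesterol exporters were near equal with Axin1. The Abcc4 to Abcg2 ratio went from 0.0323 ± 0.0049 to 0.0238 ± 0.00392 and the Abcd2 to Abcd3 ratio from 0.103 ± 0.00334 to 0.159 ± 0.0279 (SD, n = 3). All 4 ratios were without overlap between the groups and had an exact two-sided permutation p of 0.10, also after adjustment over the 4, the smallest p that 3 against 3 libraries can give.

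**Figure D4:**
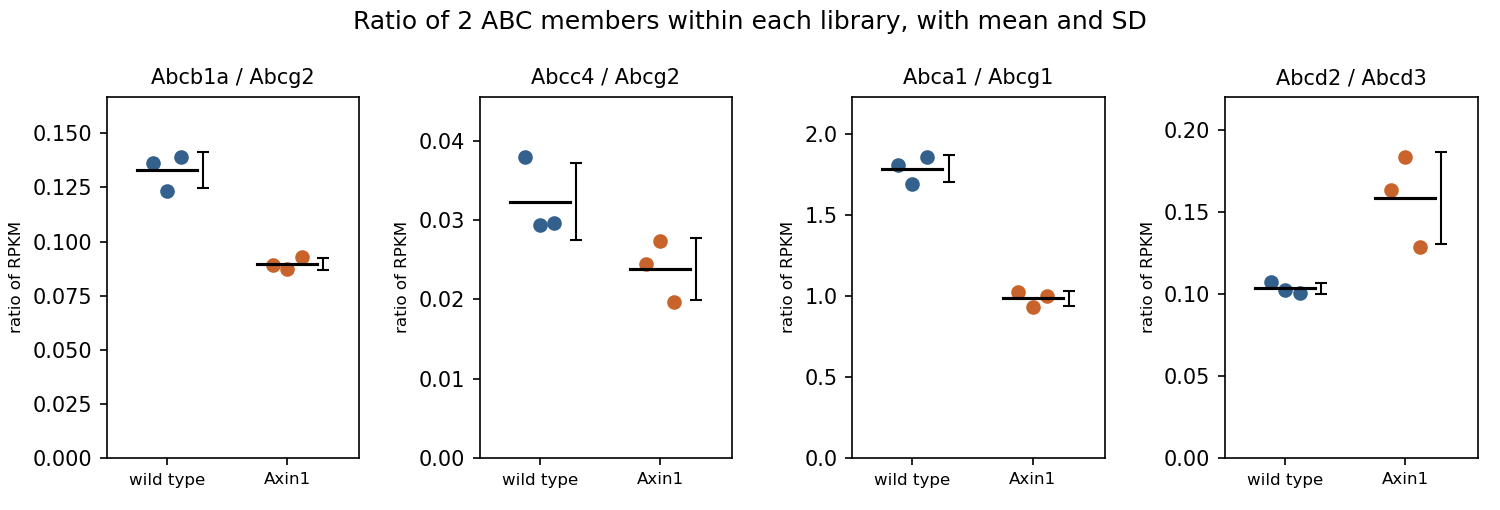
Ratio of the RPKM of 2 members within each library (points), with the group mean (line) and SD (bar beside it), each axis starting at 0. The groups are apart in every panel, lower with Axin1 for Abcb1a to Abcg2, Abcc4 to Abcg2 and Abca1 to Abcg1, and higher for Abcd2 to Abcd3.

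Of the 4 mitochondrial members of subfamily B, 1 was lower and 0 higher. Abcb10, a mitochondrial inner membrane transporter needed for heme synthesis, read 6.97, 7.07 and 6.92 RPKM in wild type and 5.84, 5.42 and 5.83 RPKM with Axin1. It fell by 0.25 in log2 (limma adjusted p = 0.018), with tight groups, and the call was lost without Axin1 replicate 2 alone. Erythroid markers were read in the same libraries. Of 9 erythroid markers 8 were in the table, 3 of the 4 tested were higher, and Hbb-b1 was at 0 in every library. Of the 3, Hbb-bh1 (0.566 to 4.02 RPKM in group means) reached the filter only through its Axin1 level, so that its passing is tied to its rise. The other marker tested, Epor, was lower (3.82 to 2.17 RPKM, log2 fold change -0.58, limma adjusted p = 0.0457), a call that ended without any library but wild-type replicate 2. The summed level of the erythroid markers was 87.5 to 112 RPKM in wild type and 288 to 562 RPKM with Axin1. Their part in the Abcb10 result was not tested. Abcb8, a subunit of the mitochondrial potassium channel, lay at 13.6 ± 0.653 and 11.95 ± 0.496 RPKM (SD, n = 3) without overlap. Its log2 fold change of -0.17 missed the threshold (adjusted p = 0.0865) and passed with either rescaling. The porphyrin transporter Abcb6 and the lysosomal peptide transporter Abcb9 missed it as well (log2 fold changes 0.05 and -0.11). The sign of Abcb6 turned without wild-type replicate 2 (-0.02).

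In subfamily D, 1 of 4 members was higher and 0 lower. Abcd2, a peroxisomal importer of very long-chain fatty acids, read 1.53, 1.44 and 1.53 RPKM in wild type and 2.13, 2.57 and 2.03 RPKM with Axin1. The wild-type libraries were nearly level and all Axin1 libraries lay above them, a change of 0.37 in log2 (SE 0.07; limma adjusted p = 0.0117), or 0.60 with voom without a filter. Only a pseudocount of 10 ended the call. Abcd3, the highest of the subfamily, read 14.3, 14.1 and 15.2 RPKM in wild type and 13.0, 14.004 and 15.8 RPKM with Axin1, with full overlap. Abcd3 and the lysosomal Abcd4 did not pass, both at -0.03 in log2. The sign of Abcd3 turned without wild-type replicate 3 or Axin1 replicate 1.

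Of the 4 members that act in translation 1 was higher and 0 lower, and the median log2 fold change was 0.19. Abce1, which splits ribosomes after termination, read 34.1, 31.3 and 36.1 RPKM in wild type and 39.7, 40.3 and 40.8 RPKM with Axin1. All Axin1 libraries lay above wild type, for a log2 fold change of 0.25 (limma adjusted p = 0.0333). The call ended with either rescaling, with the GC and length adjustment (0.09), and without any library but wild-type replicate 3. Of subfamily F, 0 of 3 passed by limma. Abcf2 and Abcf3 did not overlap between the groups (log2 fold changes 0.19 each, adjusted p = 0.0627 and 0.0509), whereas Abcf1, an initiation factor, read 46.9, 41.9 and 45.0 RPKM in wild type and 45.2, 48.7 and 46.9 RPKM with Axin1 and overlapped (0.07). Abcf2 and Abcf3 were each called with a pseudocount of 10, a filter of 5 RPKM, trend and robust variances, or voom, and Abcf3 also with no filter.

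The other members of subfamily G with a mean over 1 RPKM did not pass. Abcg1, which passes cholesterol to lipoproteins, read 23.7, 26.04 and 23.5 RPKM in wild type and 23.2, 23.9 and 23.6 RPKM with Axin1. Its log2 fold change was -0.05 (95% interval -0.19 to 0.10), turning to 0.03 with the GC and length adjustment. Abcg4, its relative in neural cells, had a log2 fold change of -0.14. Abcc9, the sulfonylurea receptor subunit that marks brain pericytes, stayed near 1 RPKM at 1.05 ± 0.0577 and 1.153 ± 0.048 RPKM (SD, n = 3; log2 fold change 0.07). The 12 pericyte and smooth muscle markers, Abcc9 among them and none at 0, summed to 73.7 to 87.0 RPKM in wild type and 56.2 to 72.6 RPKM with Axin1, and 5 of the 10 tested were lower. That count was 0 without Axin1 replicate 2, Axin1 replicate 3 or wild-type replicate 1, and 1 without wild-type replicate 3. The part of these cells in the results was not tested.

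The 21 members below 1 RPKM were not tested by limma with the filter. They were Abca6, Abca8a, Abca8b and Abca12 to Abca17, Abcb1b, Abcb4, Abcb5 and Abcb11, Abcc2, Abcc3, Abcc6, Abcc8 and Abcc12, and Abcg3, Abcg5 and Abcg8. Their means ran from 0 to 0.616 RPKM. Abca15 and Abca16 had no read in any library, which allows up to 0.00943 to 0.028 RPKM for Abca16 by counting error alone. Another 5 had fewer than 10 reads over all libraries. Fitted without a filter by voom on recovered reads, 1 of the 21 was lower (5.41% of all genes) and 1 higher (9.92% of all genes), and limma without a filter called the same 2 (4.66% and 8.61% of all genes). Abcc6, an exporter whose loss causes ectopic calcification, read 0.556, 0.644 and 0.534 RPKM in wild type and 0.316, 0.359 and 0.363 RPKM with Axin1. Its voom log2 fold change was -0.72 (adjusted p = 0.0199), on 152 to 171 reads in wild type and 38 to 66 with Axin1. Abcg3, a rodent relative of Abcg2, read 0.175, 0.142 and 0.121 RPKM in wild type and 0.326, 0.276 and 0.359 RPKM with Axin1. Its voom log2 fold change was 1.12 (adjusted p = 0.0184), on 21 to 36 reads a library. Abcg5, a sterol transporter that pairs with Abcg8, was higher without overlap (0.260 ± 0.078 against 0.492 ± 0.16 RPKM; SD, n = 3), and missed the threshold (voom 0.87 in log2, adjusted p = 0.0864). Abca8a was at 0.126 ± 0.00463 and 0.065 ± 0.0353 RPKM (SD, n = 3) without overlap, resting on 3 reads in Axin1 replicate 3, and did not pass (voom adjusted p = 0.11). Abcc8, Abcc3, Abcb4, Abca8b, Abca6, Abcc12 and Abcg8 overlapped between the groups.

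Of 48 members with an adjusted p-value in the authors' deposited table, 7 were lower at an adjusted p under 0.05 (4.97% of all genes there) and 1 higher (3.91%). These were Abca1 (deposited adjusted p = 1.56e-20), Abca4 (1.78e-05), Abcb1a (0.00023), Abca2 (0.00544), Abcc6 (0.0085), Abca3 (0.0253), Abcb10 (0.0268) and, higher, Abcd2 (0.00065). In the authors' deposited table Abcc4 and Abca9 did not pass (deposited adjusted p = 0.0685 and 0.088), nor did Abce1 (0.214).

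Genes that work with the family were followed in fixed lists. Of the cholesterol efflux partners 9 were tested. Of these 3 were lower (8.37% of all genes tested) and 0 higher, and the median log2 fold change was -0.19. The list holds the family members Abca1 and Abcg1 themselves, so that the call of Abca1 is counted here again. Only 1, Abca1, was lower without Axin1 replicate 2, Axin1 replicate 3 or wild-type replicate 1. Among the ABC members that carry cholesterol or phospholipid, 8 of 12 were tested, with 4 lower and 0 higher, 3 of 7 lower without Abca4, 2 lower with the GC and length adjustment, and 2 lower without Axin1 replicate 2, Axin1 replicate 3 or wild-type replicate 3. The lower partners were Abca1 itself, the endocytic receptor gene Lrp1 (44.6 to 31.9 RPKM; log2 fold change -0.49) and the lipoprotein receptor gene Scarb1 (72.4 to 62.0 RPKM; -0.22). Of the transcription factors that regulate ABC genes 13 were tested, with 2 higher and 0 lower, a share near the 14.4% of all genes called higher. The 2 were the aryl hydrocarbon receptor gene Ahr (3.70 to 5.07 RPKM; log2 fold change 0.37) and the estrogen receptor gene Esr1 (3.10 to 3.95 RPKM; 0.27). The count was 1 without Axin1 replicate 2, Axin1 replicate 3 or wild-type replicate 1. The liver X receptor genes Nr1h2 and Nr1h3 missed the threshold at -0.08 and -0.31 in log2 (adjusted p = 0.334 and 0.0763). Nr1i2, the pregnane X receptor gene, lay at 0.024 RPKM in wild type.

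Of the ribosome recycling and initiation partners of Abce1 and the F members, 5 of 10 were higher (14.4% of all genes tested) and 0 lower. Their median log2 fold change was 0.25, where that of all genes tested was 0.04. The higher genes were the rescue factor gene Pelo (log2 fold change 0.27), the release factor gene Etf1 (0.22) and the initiation factor genes Eif2s1 (0.33), Eif2s2 (0.39) and Eif5 (0.40). With the GC and length adjustment 4 were higher, and 3 without Axin1 replicate 2. None of the 9 peroxisome partners of subfamily D passed by limma, and 1 of 10 mitochondrial iron-sulfur and heme partners was higher, Alas2 (log2 fold change 0.45), which is an erythroid marker and was not called without Axin1 replicate 2 or 3. The ABC genes with other symbols Tap1 and Tap2, and the channel pore genes Kcnj8 and Kcnj11 that pair with sulfonylurea receptors, did not pass.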

How the data were processed

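Per the labels' protocols, RNA bound to tagged ribosomes was sequenced from 3 wild-type and 3 Axin1 libraries. The authors used Bowtie, DESeq and mm9, per the submitters' processing notes, and no read counter or filter is named in the sources used here. For each gene the authors deposited 1 RPKM per library. The authors also deposited a mean normalized count signal for either group and a p-value, raw and adjusted. No header names the RPKM unit or which group a mean belongs to. Both were settled from the values, since the implied transcript lengths had a median of 0.992 of the reference lengths and each mean was 0 exactly where its group's RPKM were. Whole reads were recovered from the RPKM and the means (within 0.05 reads for 100% of values of genes with a single transcript and 83.6% of all values). Depth was 21.1 to 62.5 M recovered reads a library, and 1 read at 1 kb was worth 0.016 to 0.0474 RPKM. Intervals and floors cover counting error only.

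The 12493 genes averaging 1 RPKM or more entered limma 3.58.1 (R 4.3.3) as log2(RPKM + 1), the group being the sole factor, in a two-sided test. No 2 libraries were duplicates by their recovered reads (chi-square per degree of freedom 7.59 to 45.5). The labels call them biological replicates, and p-values measure the spread between them. Alternatives were the replicate number as a block, pseudocounts of 0.1 and 10, no filter, a filter of 5 RPKM, 2 rescalings (median of ratios, upper quartile), trend and robust variances, voom, a loess adjustment for GC and length (span 0.5) and leaving out each library. Voom without a filter and the ratios were added after seeing the data. The members and lists were chosen with earlier results of these data known, so that no list is tested as a set. Named were the members over 1 RPKM, except 2 that are counted but not reported here one by one, with values per library for those called or without overlap at a log2 of 0.3, the highest of each subfamily, Abcb1a, Abcg2 and Abcc4, and the called genes of each list. Other members named with values were chosen after these were seen. RefSeq windows (GRCm38.p6) are of another build than mm9 and were matched by symbol. Python 3.11.15 with pandas 2.3.3, scipy 1.17.1 and matplotlib 3.10.9 did the rest.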

Additional observations from a re-analysis of the deposited data

How the results depend on the processing

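Of 443 values of single members under other settings, 380 kept their direction and their side of the threshold. Of the 10 called members, the call of Abca1 held in every alternative, those of 4 (Abca4, Abcb1a, Abcb10 and Abcd2) ended in 1 alternative each (of 13 that tested Abca4, 16 for Abcd2 and 17 for the others), and those of the other 5 in more than 1. Lower members (8) numbered 5 with a pseudocount of 10 or a filter of 5 RPKM, 4 with the GC and length adjustment, and 2 to 7 when a library was left out. Higher members (2) numbered 4 with no filter, a filter of 5 RPKM, trend and robust variances or voom, 1 with either rescaling, and 1 to 3 when a library was left out. The median log2 fold change of the members turned to 0.0096 with a filter of 5 RPKM, where fewer members were tested. Signs turned with the GC and length adjustment for Abca7 (0.10), Abcc10 (0.040), Abcg1 (0.029) and Abcg2 (-0.065). They also turned when a library was left out, for Abcb6 (-0.015 to 0.106, lowest without wild-type replicate 2), Abcd3 (-0.097 to 0.033, above 0 without wild-type replicate 3 or Axin1 replicate 1) and Abcg2 (-0.020 to 0.104, lowest without Axin1 replicate 3), none of these passing before or after. The related lists together held 3 lower genes, the family member Abca1 among them. These numbered 5 with a pseudocount of 10 or with the adjustment, 6 with either rescaling and 1 to 3 when a library was left out. Higher genes of these lists (8) numbered 5 with a filter of 5 RPKM and 4 to 11 when a library was left out. Over all genes, 1800 were higher and 1046 lower, against 890 and 900 with the adjustment and 1297 and 1339 after rescaling by the median of ratios, and 2016 and 1016 with voom on recovered reads. When a library was left out, 580 to 1489 were higher and 471 to 930 lower. With the replicate number as a block, 7 members were lower and 2 higher, Abcc4 being lost. Same-numbered libraries deviated together with correlations across genes of 0.08, 0.13 and 0.06, so the numbers are not taken to pair the libraries, although every library correlated best with its own number. Unless fewer genes or libraries entered, the cause of a change was not tested. The shallowest library, with 21.1 M reads, limits what can be said of members below 1 RPKM.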
